A study of Mus musculus with 4 samples.

Results

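The 10 genes described here are part of the cell's answer to damaged DNA: Cdkn1a, Mdm2, Ccng1, Bax, Aen, Phlda3 and Eda2r, all known targets of the transcription factor p53, and Gadd45a, Gadd45b and Gadd45g, a family of small stress-response proteins. They were taken by symbol from the 32285 genes of a spatial RNA data set of mouse liver tumour models, and each symbol matched 1 gene. The measurement was Visium, in which a frozen tissue section lies on a slide of barcoded spots and the captured messenger RNA is counted per spot as unique molecular identifiers (UMIs). There were 4 sections, 1 each from DEN+CCL4 liver at 30 weeks (DEN30w), DEN+CCL4 liver at 22 weeks (DEN22w), STAM liver at 20 weeks (STAM20w) and STAM liver at 16 weeks (STAM16w), with w in the labels read as weeks. DEN+CCL4 joins diethylnitrosamine, a carcinogen that damages DNA, to carbon tetrachloride, a liver toxin that leads to scarring. STAM is a model of liver cancer on a fatty, inflamed liver with diabetes. The labels give no strain, sex or untreated control, and do not say whether weeks are age or time since treatment. Each time has 1 section and nothing states that sections are from separate animals, so p-values across sections measure the spread between these 4 sections, which may be technical, and time, animal and slide cannot be told apart.

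When DNA is damaged, kinases stabilise p53, which binds paired copies of a short sequence near its target genes and switches them on. The protein products then halt the cell cycle, repair the damage or lead the cell into death, and Mdm2, itself a target, marks p53 for degradation and so closes the loop. The Gadd45 genes are also switched on by other stress and growth signals, among them inflammatory and fasting signals in liver. Cdkn1a in liver is known both from p53 and from regeneration and stress without it.

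The kept spots numbered 2968 in DEN30w, 2746 in DEN22w, 2833 in STAM20w and 2080 in STAM16w, with 34880049, 22471682, 40008457 and 20700642 UMIs in this order. The 7 hepatocyte markers summed to between 55200 and 97300 CPM (UMIs per 1000000 UMIs of the section), with no marker at 0, as the liver label requires. STAM20w stood apart from the other sections in mitochondrially encoded RNA, at 3.67% of UMIs against 1.31% to 2.10%. The same spot barcode occurred in 2 or more sections for 3292 of 3996 barcodes, since the slide's barcodes are printed in the same pattern. Intervals below are exact at 95% and cover counting error only. Because spots hold several cells and the UMIs were summed over spots, fewer cells of a type and less RNA per cell cannot be told apart.

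Cdkn1a encodes p21, the cyclin-dependent kinase inhibitor through which p53 stops the cell cycle. It lies on chromosome 17 from 29090979 to 29100722 (GRCm38.p6, the assembly of mm10). Its level was 32.9 CPM in DEN30w, 16.4 CPM in DEN22w, 40.8 CPM in STAM20w and 12.5 CPM in STAM16w. Both later sections lay above both earlier ones, and no 2 neighbours in this order had overlapping intervals.

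Mdm2, the ubiquitin ligase that degrades p53 (chromosome 10, 117688875 to 117710758), had 67.3 CPM in DEN30w, 55.7 CPM in DEN22w, 46.8 CPM in STAM20w and 53.2 CPM in STAM16w. The 2 middle levels, of DEN22w and STAM16w, had overlapping intervals, and the whole range was narrow beside that of Cdkn1a. Ccng1, cyclin G1 (chromosome 11, 40748552 to 40755309), had 38.8, 27.9, 49.2 and 40.2 CPM in the same order of sections. STAM20w was highest and DEN22w lowest, and the levels of STAM16w and DEN30w overlapped.

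The genes linked to cell death and growth control spanned wide and narrow ranges. Bax, which makes mitochondria permeable in apoptosis (chromosome 7, 45461695 to 45466903), had 89.8, 77.9, 85.0 and 84.5 CPM in DEN30w, DEN22w, STAM20w and STAM16w. Aen, an apoptosis-enhancing nuclease (chromosome 7, 78895927 to 78911209), had 48.0, 49.5, 59.7 and 57.1 CPM in the same order. For both genes the sections lay close together. Phlda3, which holds back Akt signalling (chromosome 1, 135766085 to 135769134), had 10.8, 8.28, 15.7 and 8.65 CPM, with STAM20w above the other sections. Eda2r, a receptor of the tumour necrosis factor receptor family (chromosome X, 97333837 to 97377234), had 2.90, 1.82, 1.72 and 2.37 CPM from 101, 41, 69 and 49 UMIs. At these counts its intervals overlapped between all neighbouring sections.

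The 3 Gadd45 genes encode small acidic proteins that bind stress kinases and cell cycle proteins. Gadd45a (chromosome 6, 67035096 to 67037407) had 6.74 CPM in DEN30w, 6.81 CPM in DEN22w, 23.6 CPM in STAM20w and 7.05 CPM in STAM16w. STAM20w alone was high, and the other sections overlapped. Gadd45b (chromosome 10, 80930091 to 80932204) had 11.7, 4.41, 14 and 5.27 CPM in the same order, and Gadd45g (chromosome 13, 51846675 to 51848475) had 91.7, 14.6, 81.3 and 27.0 CPM. For these 2 genes the later section of each model lay above both earlier sections.

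**Figure D1:**
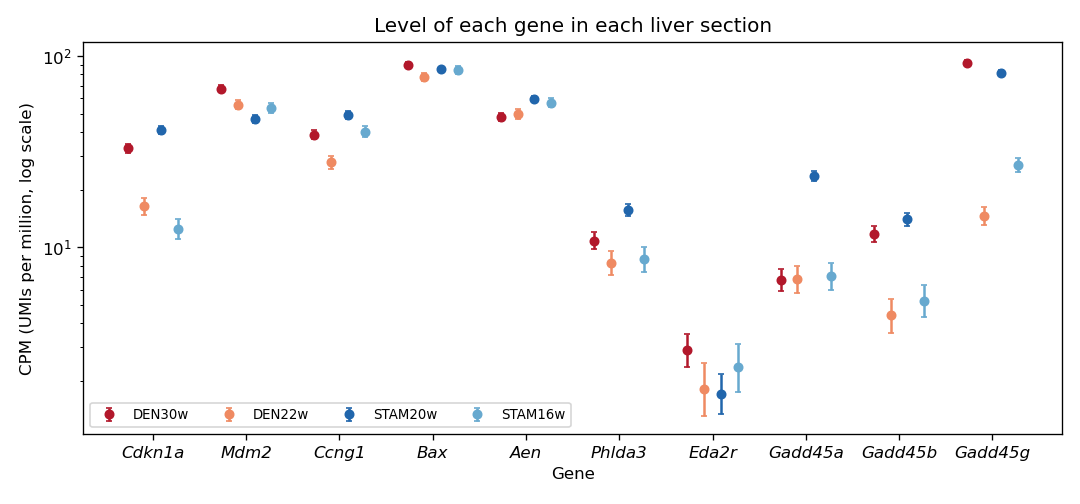
Level of each gene in CPM (log axis) in the 4 sections, with exact Poisson 95% intervals for counting error. Cdkn1a, Gadd45b and Gadd45g were higher in DEN30w and STAM20w than in DEN22w and STAM16w, Gadd45a was high in STAM20w alone, and Mdm2, Bax and Aen were nearly level.

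The p53 binding sequence was looked for in the RefSeq promoter windows of these genes (GRCm38.p6, 250 bases before to 50 after each start). All 10 genes had a window, 12 in all. A full site of 20 bases, made of 2 copies of the p53 half-site consensus of 10 bases with no spacer and at most 1 mismatch, was found for Cdkn1a and Ccng1. The consensus reads the same on both strands, though a given site need not. Of 32851 windows of the same length, 29 (0.0883%) hold a full site. Each stretch below ends before the start, with the site in capitals. The Cdkn1a stretch is chr17:29090888-29090978 on the plus strand, and its site runs from 51 to 32 bases before the start at 29090979. The Ccng1 stretch is chr11:40755422-40755521 on the minus strand, and its site runs from 195 to 176 bases before the start at 40755286.
Cdkn1a: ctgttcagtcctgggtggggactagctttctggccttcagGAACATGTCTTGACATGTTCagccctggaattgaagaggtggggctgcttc
Ccng1: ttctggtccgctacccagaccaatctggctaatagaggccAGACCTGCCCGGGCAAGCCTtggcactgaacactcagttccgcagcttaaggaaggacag
At least 1 half-site without mismatch was present in 7 of the 12 windows, of Cdkn1a, Ccng1, Mdm2, Bax, Aen and Gadd45a, against 8.36% of all windows. The windows of Aen overlap each other. By gene, 6 of the 10 members had such a half-site, against 9.55% of all genes. A second Cdkn1a window, from 29093519 to 29093818, held neither a full site nor a half-site without mismatch. The windows of Phlda3, Eda2r, Gadd45b and Gadd45g held no such letters either. None of this says anything of sites outside the windows, for any of the 10 genes. A link between these letters and the levels was not tested.

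The first comparison asked how the genes stood in DEN+CCL4 liver against STAM liver. By label, both DEN+CCL4 sections (22 and 30 weeks) were later than both STAM sections (16 and 20 weeks). Model and week therefore cannot be told apart, here or in the interaction with zone. None of the 10 passed the threshold (adjusted p of 0.05 in edgeR's quasi-likelihood test on section sums, over 14417 genes), where 63 genes or 0.437% did. Unadjusted p was under 0.05 for 2 members, Ccng1 and Gadd45a, and for 3305 of the 14417 genes. Ccng1 had a log2 fold change of -0.60 (SE 0.21, adjusted p = 0.175) and both DEN+CCL4 sections lay below both STAM sections. Gadd45a had -1.32 (SE 0.51, adjusted p = 0.201), again with both DEN+CCL4 sections below both STAM sections. Aen at -0.43 (SE 0.19, adjusted p = 0.254) was ordered in the same way, and Mdm2 at 0.12 (SE 0.21, adjusted p = 0.779) had both DEN+CCL4 sections above both STAM sections.

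Sections of the 2 models did not overlap for those 4 of 10 members, against 57.7% of all genes tested. The remaining members, Cdkn1a, Phlda3, Bax, Eda2r, Gadd45b and Gadd45g, had fold changes between -0.51 and 0.03 with adjusted p of 0.344 or more. Their direction was not stable: over the alternatives Gadd45g ran from -1.95 to 0.72, Cdkn1a from -0.82 to 0.75, Gadd45b from -1.2 to 0.38 and Eda2r from -0.27 to 0.37. Without the STAM16w section the Gadd45a difference was -1.88 (adjusted p = 0.0267), where the lone STAM section is assumed to vary like the DEN+CCL4 sections, and over the alternatives its adjusted p ran from 0.0145 to 0.589. Over the members the median log2 fold change was -0.35, against 0.00 over all genes tested.

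Other parts of the damage response were read from 3 gene lists. None of the 29 other p53 target genes tested, none of 12 genes for p53 and its regulators and none of 28 DNA repair genes passed in this comparison, with medians of -0.12, -0.05 and -0.08 on the log2 scale. Unadjusted p was under 0.05 for 6, 1 and 5 of them, beside 3305 of all 14417 genes tested. DESeq2 called 1517 genes of all those tested and none of the 10 members.

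The later and the earlier section of each model were set side by side with no test, as there was 1 section a time. Cdkn1a, Gadd45b and Gadd45g were at least 2-fold higher at the later time in both models, and Gadd45a in STAM. These were 3 of the 9 members at 5 CPM or more in DEN+CCL4, where 3.09% of genes at that level were that much higher, and 4 of 9 in STAM, where 7.12% were. Over all genes at that level, 0.979% were at least 2-fold higher at the later time in both models. No member was 2-fold lower, as 0.874% of genes were in DEN+CCL4 and 2.75% in STAM. The members were chosen with earlier results of these data known, so the shares of all genes, here and below, are no test of the members.

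Cdkn1a had a log2 ratio of 1.0 (interval 0.83 to 1.18) for DEN30w over DEN22w and of 1.71 (1.52 to 1.91) for STAM20w over STAM16w. Gadd45b had 1.41 in each model, with intervals of 1.09 to 1.74 in DEN+CCL4 and 1.11 to 1.72 in STAM. Gadd45g had the highest ratio of the members in DEN+CCL4, 2.65 (2.49 to 2.82), and 1.59 (1.46 to 1.73) in STAM. Gadd45a stood at -0.02 (-0.32 to 0.29) in DEN+CCL4 and 1.75 (1.49 to 2.01) in STAM.

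The other members, Mdm2, Ccng1, Phlda3, Bax, Aen and Eda2r, differed by less than 2-fold in both models. Mdm2 had 0.27 (0.17 to 0.37) in DEN+CCL4 and -0.19 (-0.30 to -0.08) in STAM, so that it was higher at the later time in the first model and lower in the second. Ccng1 had 0.48 and 0.29, Phlda3 0.39 and 0.86, and Bax 0.20 and 0.01 in DEN+CCL4 and in STAM. Aen had -0.05 and 0.06, with both intervals spanning 0. Eda2r had 0.67 (0.13 to 1.23) and -0.46 (-1.01 to 0.10), the widest intervals of the 10 genes.

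**Figure D2:**
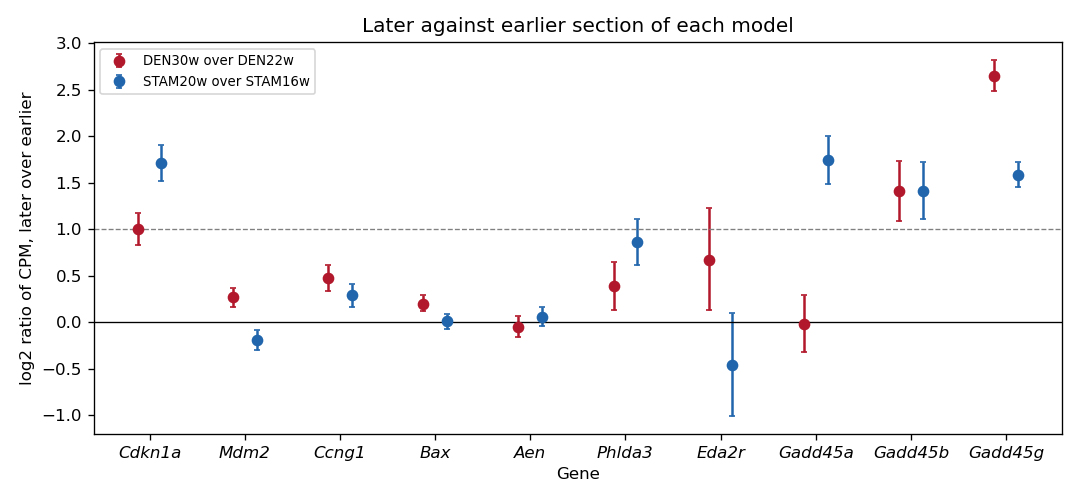
Log2 ratio of CPM for the later over the earlier section of DEN+CCL4 and of STAM, with exact binomial 95% intervals for counting error, for each gene. The dashed line marks 2-fold: Cdkn1a, Gadd45b and Gadd45g reach it in both models, Gadd45a only in STAM, and Mdm2 lies on opposite sides of 0.

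The other p53 targets gave 3 of 24 genes at 5 CPM or more that were 2-fold higher in DEN30w than in DEN22w and 2 of 21 in STAM20w over STAM16w, with medians of 0.36 and 0.05 on the log2 scale against 0.09 and 0.14 over all genes at that level. In DEN+CCL4 these were Fas, a death receptor, at 39.5 against 17.4 CPM, Plk3, a stress kinase, at 103 against 51.2 CPM, and Psrc1. In STAM they were Btg2, an antiproliferative gene, at 46.2 CPM in STAM20w against 9.18 CPM in STAM16w, and Ptp4a3, a phosphatase, at 35.9 against 16.9 CPM, while Sytl1 was lower at 3.90 against 11.7 CPM. These genes are named because their counts were small, after their values were seen.

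DNA repair had none of 22 genes 2-fold higher in DEN+CCL4 and 1 of 22 in STAM, H2afx, the histone marked at DNA breaks, at 21.6 CPM in STAM20w against 9.85 CPM in STAM16w. p53 itself and its regulators had none of 6 in either model. Trp53, the gene of p53, had 21.0 CPM in DEN30w, 12.9 CPM in DEN22w, 19.7 CPM in STAM20w and 14.9 CPM in STAM16w. Of the immediate early genes, which are switched on within minutes of many stimuli and of tissue handling, 5 of 10 at 5 CPM or more were at least 2-fold higher in DEN30w and 8 of 11 in STAM20w, with medians of 1.03 and 1.36. They did not all go one way: Dusp1 had 48.1 CPM in DEN30w against 91.9 CPM in DEN22w, and Ier2 had 52.8 against 70.1 CPM. Of the integrated stress response list, 1 of 8 and 4 of 9 were. Their part in the members' levels was not tested.

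The differences between times were looked for across each section, in regions of spots grouped by their expression with the 10 genes left out. DEN30w had 6 regions, DEN22w 5, STAM20w 9 and STAM16w 6, called here by leading genes. Cdkn1a ran from 23.5 to 43.9 CPM over the regions of DEN30w, against 11.0 to 22.5 CPM over those of DEN22w. In STAM it ran from 30.5 to 47.8 CPM over the regions of STAM20w, against 8.59 to 15.5 CPM in STAM16w. Every region of the later section was thus above every region of the earlier one, in both models.

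Gadd45g had the same order, from 47.7 to 120 CPM in DEN30w regions against 7.02 to 19.5 CPM in DEN22w, and from 51.8 to 162 CPM in STAM20w regions against 18.7 to 31.9 CPM in STAM16w. Gadd45a did so in STAM, at 12.7 to 57.1 CPM in STAM20w regions against 4.30 to 8.25 CPM in STAM16w. Such an order held for 2 of 9 members in DEN+CCL4 and 3 of 9 in STAM, against 6.31% and 8.54% of genes at 5 CPM or more. Gadd45b, which was also higher at the later times, overlapped between regions.

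Within STAM20w, Gadd45a was uneven. It had 57.1 CPM (49.3 to 65.8) in a region of 228 spots led by H19 and Afp, genes of fetal liver that are also made in liver tumours, against 20.6 CPM in the rest of that section. A region of 181 spots led by Cpe and Maoa had 42.2 CPM (36.5 to 48.5) against 21.2 CPM in the rest. The lowest level was 12.7 CPM (10.6 to 15.1), in 639 spots led by Ighg2b and Igkc. Gadd45a outside the H19 and Afp region was therefore still above the 7.05 CPM of the whole STAM16w section.

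Gadd45g shared the Cpe and Maoa region with Gadd45a, but not the H19 and Afp region. In STAM20w it had 143 CPM (132 to 154) in the Cpe and Maoa region against 73.1 CPM in the rest, and 162 CPM (136 to 191) in 60 spots led by Noct, a clock-controlled gene, and Saa2, against 79.6 CPM in the rest. In the H19 and Afp region it had 82.0 CPM, close to the section's 81.3 CPM. In DEN30w it had 120 CPM (114 to 127) in 636 spots led by Etnppl and Saa2, against 80.1 CPM in the rest.

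Gadd45b and Phlda3 shared a high region in DEN30w, 613 spots led by the immunoglobulin genes Igkc and Ighm. Gadd45b had 23.6 CPM there against 8.97 CPM in the rest, and Phlda3 had 17.2 CPM (14.2 to 20.7) against 9.36 CPM. Bax was also higher in it, at 120 against 82.7 CPM. In STAM16w the highest Gadd45b level, 25.8 CPM (13.3 to 45.0), came from 12 UMIs in 48 spots led by Mgp and Gsn, against 4.79 CPM in the rest.

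In DEN22w, 987 spots led by Gstm3, a glutathione transferase, and Gstm2 had more of several p53 targets than the rest of the section. Cdkn1a had 22.3 against 13.2 CPM, Phlda3 12.7 against 5.87 CPM, Bax 105 against 62.8 CPM and Eda2r 3.38 against 0.966 CPM. The region led by Etnppl and Pck1, genes of periportal hepatocytes, had less of the same genes, with Cdkn1a at 11.0 against 20.5 CPM and Bax at 57.6 against 93.2 CPM. In STAM20w, spots led by Malat1 and haemoglobin genes, which had 7.69% mitochondrial UMIs, had less Bax (57.8 against 92.3 CPM) and Mdm2 (32.8 against 50.5 CPM).

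**Figure D3:**
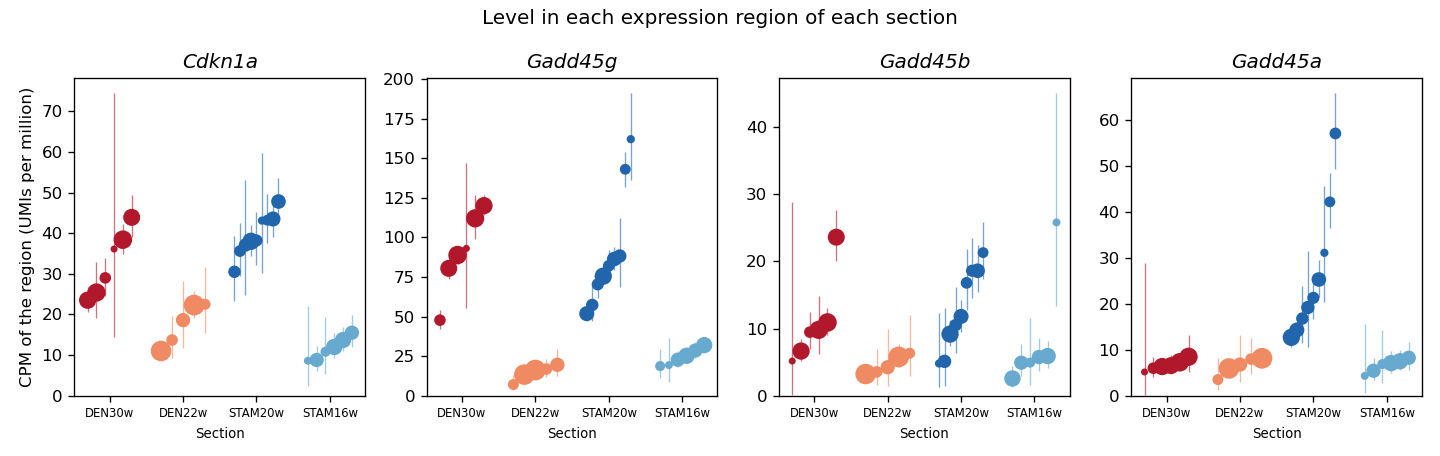
Level of Cdkn1a, Gadd45g, Gadd45b and Gadd45a in CPM in each expression region, by section, with exact Poisson 95% intervals and point area growing with the number of spots. All regions of DEN30w and STAM20w lie above those of DEN22w and STAM16w for Cdkn1a and Gadd45g, and 2 STAM20w regions stand out for Gadd45a.

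The liver lobule runs from periportal cells, which receive blood first, to pericentral cells around the central vein, where many carcinogens and toxins are activated by cytochromes. Spots were ranked in each section by 8 pericentral and 8 periportal marker genes, none of them a member, and cut into 3 equal classes, pericentral, mid and periportal. The pericentral class had a summed pericentral marker level of 3750 to 8340 CPM against 1240 to 2600 CPM in the periportal class. In STAM20w, pericentral markers were also among the genes that set regions apart. Cyp1a2 was so in the Cpe and Maoa region, and Rhbg, Lect2 and Cyp1a2 in 252 spots led by Wfdc2 and Nupr1. The pericentral class of that section may therefore not be lobule position alone, which was not tested. Phlda3 and Gadd45b were higher in pericentral than in periportal spots of all 4 sections and passed the test with the section as a block. Of the 13375 genes tested 9.32% passed, 4.41% higher and 4.9% lower in pericentral spots, and of the 10 members 2 rose and none fell.

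Phlda3 had 14.5 CPM in pericentral spots against 7.32 CPM in periportal spots of DEN30w, and 14 against 4.87 CPM in DEN22w. In STAM20w it had 19.6 against 9.80 CPM, and in STAM16w 11.8 against 6.35 CPM. The mid class lay between the others in every section. The fitted log2 fold change was 0.92 (SE 0.13, adjusted p = 0.00103), and leaving out any 1 section gave 0.82 to 1.0.

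Gadd45b had 17.0 CPM in pericentral spots against 7.94 CPM in periportal spots of DEN30w, and 6.43 against 3.28 CPM in DEN22w. In STAM20w it had 18 against 9.73 CPM. In STAM16w it had 6.25 against 4.72 CPM, where the interval of the ratio spanned 0. The fitted log2 fold change was 0.72 (SE 0.13, adjusted p = 0.00566). Without DEN30w it was 0.67 and missed the threshold (adjusted p = 0.053), and over the alternatives its adjusted p ran from 3.28e-05 to 1.0.

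Markers of other cells also differed between the zones, though not equally in every section. The 10 stroma markers, genes of collagen-making and contractile cells, summed to 792 CPM in pericentral spots against 327 CPM in periportal spots of DEN30w (9 of 10 higher) and to 472 against 212 CPM in DEN22w (8 of 10). In STAM20w they summed to 413 against 310 CPM (7 of 10) and in STAM16w to 252 against 225 CPM (4 of 10). The 11 macrophage markers summed to 925 to 1530 CPM in pericentral and 544 to 1230 CPM in periportal spots, and no marker of either list was at 0 in any section. Proliferation markers were higher in pericentral spots for 10 of 10 genes in DEN30w (159 against 82.3 CPM), DEN22w (125 against 55.8 CPM) and STAM20w (128 against 54.6 CPM), and for 6 of 10 in STAM16w. B and plasma cell markers summed to 165 against 42.7 CPM in DEN30w, and hepatocyte markers to 48700 against 71000 CPM in STAM20w, with 0 of 7 higher. Bile duct markers were lower in pericentral spots of DEN22w (68.0 against 86.4 CPM), STAM20w (187 against 236 CPM) and STAM16w (31.7 against 147 CPM). In DEN30w they were higher, at 249 against 142 CPM. The part of proliferation, B and plasma cell, bile duct and hepatocyte markers in the result was not tested. In spots at or below the median of both marker scores, 127 to 226 pericentral and 194 to 477 periportal spots a section, Phlda3 had a log2 fold change of 0.65 (SE 0.27, adjusted p = 0.297) and Gadd45b 0.65 (SE 0.31, adjusted p = 0.383). No member passed there, and 264 genes did.

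Of the other members, Cdkn1a, Ccng1, Bax and Eda2r had unadjusted p under 0.05 and adjusted p of 0.0918 to 0.190. Over all 13375 genes tested, 3202 had unadjusted p under 0.05. Cdkn1a had 43.1 CPM in pericentral spots against 24.0 CPM in periportal spots of DEN30w and 22.2 against 10.5 CPM in DEN22w. In STAM it had 42.6 against 37.5 CPM in STAM20w and 13.2 against 12.7 CPM in STAM16w. The difference was thus wide in both DEN+CCL4 sections and narrow in both STAM sections. The interaction of zone with model had a log2 fold change of 0.64 (SE 0.16) and did not pass (adjusted p = 0.137). Without STAM20w Cdkn1a (0.58) and Bax (0.38) passed the zone test itself. Without STAM16w the interaction had an adjusted p of 0.00800, and over the alternatives the adjusted p ran from 0.00800 to 1.0.

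Gadd45g ran the other way in 1 section. It had 68.0 CPM in pericentral spots against 120 CPM in periportal spots of DEN30w, while it was higher in pericentral spots of DEN22w (17.8 against 14 CPM), STAM20w (101 against 75.0 CPM) and STAM16w (31.6 against 24.5 CPM). Its interaction with the model was -1.02 (SE 0.26, adjusted p = 0.147). It was under the threshold without DEN22w (-1.39, adjusted p = 0.00528), without STAM20w (-1.13, adjusted p = 0.00524) and without STAM16w (-1.11, adjusted p = 0.000202). With 1 section left out, 1 model has a single section, which these interaction tests assume to vary like the sections of the other model. Without DEN30w it was -0.15 and did not pass, and over the alternatives the adjusted p ran from 6.56e-07 to 1.0. No member passed this test as planned, where 48 genes (0.359%) did.

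**Figure D4:**
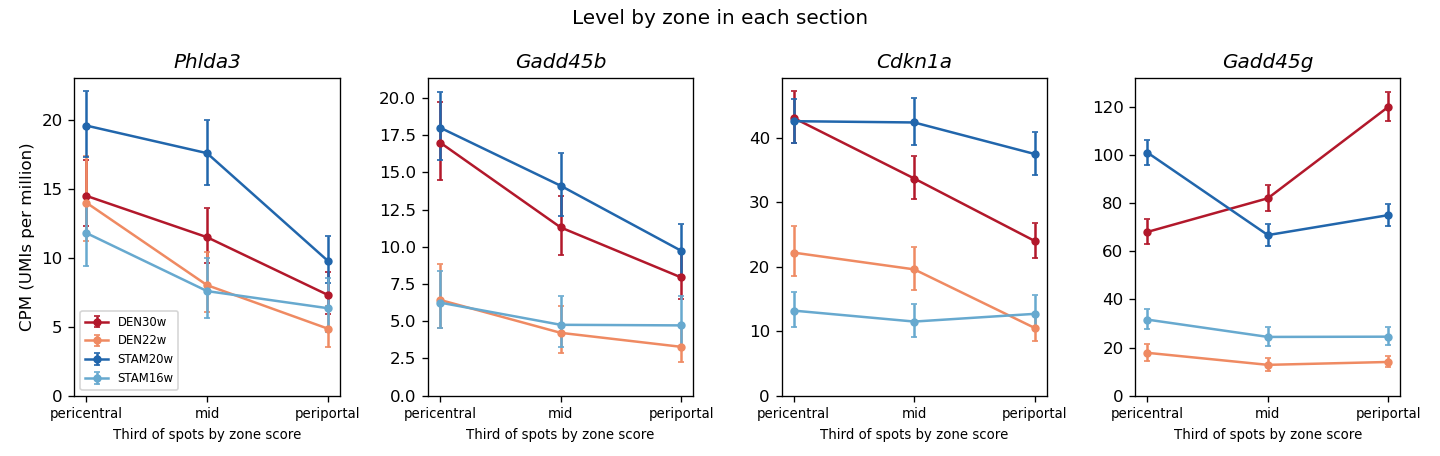
Level in CPM of Phlda3, Gadd45b, Cdkn1a and Gadd45g in the pericentral, mid and periportal spots of each section, with exact Poisson 95% intervals. Phlda3 and Gadd45b are lower in the periportal than in the pericentral spots of every section, and Gadd45g is higher in the periportal spots in DEN30w alone.

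Other p53 targets moved between zones in both directions, 2 higher and 3 lower of 29 tested, with a median of 0.05 against -0.02 over all genes. Ckap2, a mitotic spindle protein, had 0.98 (adjusted p = 0.00719) and Plk2, a stress kinase, 0.42 (adjusted p = 0.0427), while Sytl1 had -0.53 (adjusted p = 0.0338) and Btg2 -0.51 (adjusted p = 0.0129). No gene of the p53 regulator list (10 tested) or of DNA repair (28 tested) passed, nor had any an unadjusted p under 0.05. Of 12 immediate early genes 4 were higher in pericentral spots, among them Myc at 0.80 (adjusted p = 0.0114), Ier3 at 0.75 (adjusted p = 0.0105) and Klf6 at 0.66 (adjusted p = 0.00149), and 2 were lower, among them Ier2 at -0.51 (adjusted p = 0.00165). Of 10 genes of the integrated stress response 2 were higher, Vldlr at 1.07 (adjusted p = 0.0357) and Atf3 at 0.78 (adjusted p = 0.0465). Neither was higher in every section. The log2 ratio of CPM was -0.55 for Vldlr in DEN22w, where it had 12 UMIs in all, and -0.69 for Atf3 in STAM16w.

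Pericentral and periportal spots differed in depth, with median UMIs of 8171 against 11285 in DEN30w, 5801 against 9797 in DEN22w, 12806 against 13267 in STAM20w and 10318 against 9396 in STAM16w. On the CPM scale the median gene was itself 0.16 higher (log2) in pericentral spots of DEN30w and DEN22w, 0.10 in STAM20w and 0.04 in STAM16w, and the fitted fold changes are relative to that shift. Without the section as a block no gene passed at all.

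Spots rich in the RNA of another cell type were then set against spots of the same section with the same depth and a marker score at or below the median. Stroma-rich spots, the 10% with the highest stroma score, had more Phlda3 and Gadd45b. Of the 10 members 2 rose and none fell, while 11.5% of 11337 genes passed, 6.17% higher and 5.36% lower. Phlda3 had 16.2 CPM in stroma-rich spots against 7.83 CPM in matched spots of DEN30w and 15.4 against 5.47 CPM in DEN22w. It had 25.6 against 11.7 CPM in STAM20w and 13.3 against 7.17 CPM in STAM16w, so the class was higher in all 4 sections, with an interval of the ratio that spanned 0 in STAM16w. The fitted log2 fold change was 1.0 (SE 0.18, adjusted p = 0.000215) and passed under all 9 alternatives, with values of 0.83 to 1.43.

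Gadd45b had 22.2 CPM in stroma-rich spots against 6.89 CPM in matched spots of DEN30w, 22.6 against 13.9 CPM in STAM20w and 8.70 against 3.07 CPM in STAM16w. In DEN22w it had 5.97 against 5.47 CPM from 12 and 11 UMIs, which did not separate. The fitted log2 fold change was 0.90 (SE 0.21, adjusted p = 0.00336). It was lost without DEN30w (0.64, adjusted p = 0.145) and with DESeq2 (0.89, adjusted p = 0.194), and over the alternatives the adjusted p ran from 0.000261 to 0.194. With matches drawn from the same zone, both genes passed, Phlda3 at 0.83 and Gadd45b at 0.61.

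Stroma-rich spots also held more of other markers. Bile duct markers summed to 107 to 401 CPM in them against 52.7 to 166 CPM in matched spots, macrophage markers to 939 to 1870 against 742 to 1310 CPM, markers of B and plasma cells to 20.4 to 350 against 12.4 to 53.9 CPM, and erythroid markers to 193 to 560 against 32.8 to 286 CPM. The part of these cells in the result was not tested. Whether the 2 genes belong to stromal cells or to hepatocytes beside them cannot be told apart at the size of a spot. The other 8 members had fold changes between -0.25 and 0.24, among them Cdkn1a at 0.24 (adjusted p = 0.311), with 51.2 against 38.1 CPM in STAM20w and 25.9 against 10.9 CPM in DEN22w but 11.3 against 15.4 CPM in STAM16w. Of 26 other p53 targets 2 rose, Pmaip1, which encodes the death protein Noxa, at 1.33 (adjusted p = 0.0260) and Ptp4a3 at 0.40 (adjusted p = 0.0394), and Ei24 fell by 0.34. Of 11 immediate early genes 4 rose, led by Fos at 1.23 (adjusted p = 0.00491), and 1 fell.

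No member passed in macrophage-rich spots, where 677 of 11321 genes (5.98%) did. Gadd45b came nearest, at 0.58 (SE 0.18, adjusted p = 0.0672), with Cdkn1a at 0.37 (SE 0.12, adjusted p = 0.0762) and Bax at 0.25 (SE 0.09, adjusted p = 0.124). Unadjusted p was under 0.05 for 4 members, Phlda3 being the other, and for 2014 of the 11321 genes. Cdkn1a had 44.6 CPM in macrophage-rich spots against 25.4 CPM in matched spots of DEN30w, 20.1 against 14.2 CPM in DEN22w, 47.0 against 40.5 CPM in STAM20w and 12.5 against 9.12 CPM in STAM16w. It was higher in every section, but the intervals of the ratio spanned 0 in all but DEN30w. Without STAM20w Cdkn1a (0.55, adjusted p = 0.0414) and Bax (0.34, adjusted p = 0.0391) passed, and over the alternatives the adjusted p ran from 0.0414 to 0.888 for Cdkn1a and from 0.0200 to 0.896 for Bax. Pericentral markers were also higher in this class, and with matches from the same zone Gadd45b had 0.40 (adjusted p = 0.307) and Cdkn1a 0.11 (adjusted p = 0.730).

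Bile-duct-marker-rich and proliferation-marker-rich spots gave no member either, where 229 of 11482 genes (1.99%) and 21 of 11247 genes (0.187%) passed. In the first class Gadd45b had 0.70 (SE 0.22, adjusted p = 0.127) and Gadd45a 0.42 (SE 0.20, adjusted p = 0.398). Gadd45b passed there without DEN22w (0.86, adjusted p = 0.0389), and over the alternatives its adjusted p ran from 0.0107 to 1.0. In the second class 9 members were tested, since Eda2r had too few UMIs, and Gadd45a had 0.64 (SE 0.23, adjusted p = 0.332). Among the sections the ratio was highest in STAM20w, with 34.7 CPM in proliferation-marker-rich spots against 14.3 CPM in matched spots, while DEN30w had 7.12 against 7.14 CPM. Unadjusted p was under 0.05 for 2 and 3 members in the 2 classes, and for 1414 and 1275 of all genes tested. Cdkn1a had 0.14 (SE 0.18, adjusted p = 0.852) in proliferation-marker-rich spots. It was higher in that class in DEN30w (42.4 against 25.8 CPM) and DEN22w (20.7 against 12 CPM), but not in STAM20w (36.9 against 42.7 CPM) or STAM16w (12.4 against 12.9 CPM).

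**Figure D5:**
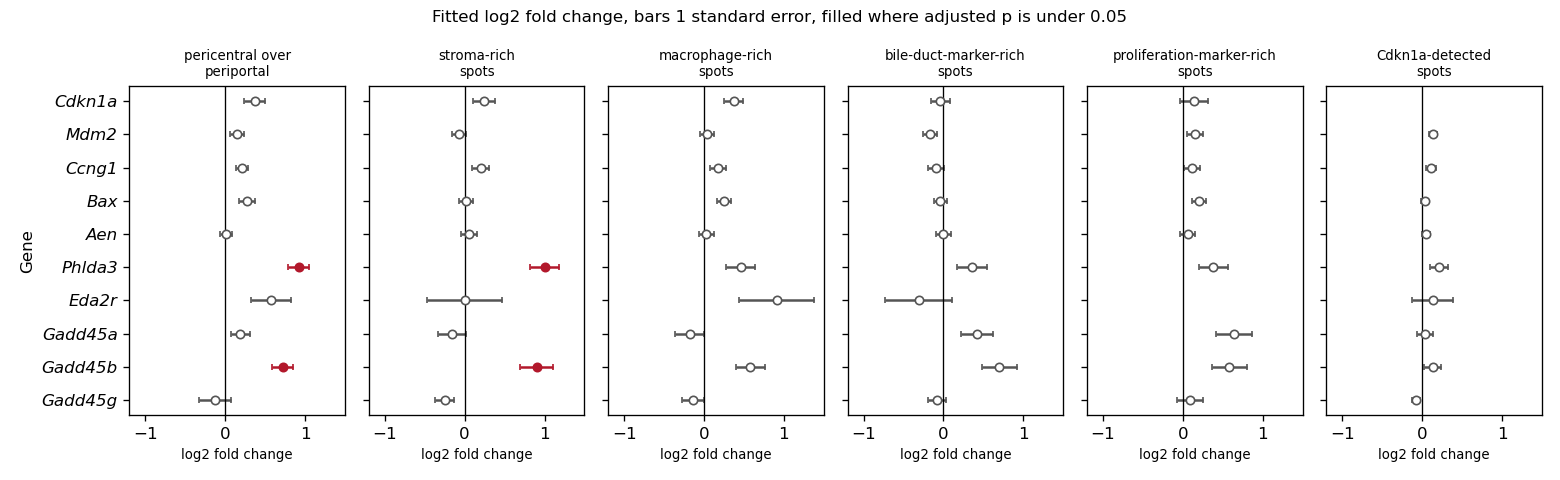
Fitted log2 fold change of each gene, with bars of 1 standard error, for pericentral over periportal spots and for each class of spots over its matched spots. Filled points passed an adjusted p of 0.05: Phlda3 and Gadd45b in the first 2 panels, and none of the members in the others.

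The last comparison asked which genes went with Cdkn1a from spot to spot. Spots with at least 1 Cdkn1a UMI were paired with spots of like depth that had none. Pairs were found for 830 of 851 such spots in DEN30w, all 333 in DEN22w, 865 of 1100 in STAM20w and all 233 in STAM16w. Median UMIs of the paired spots were equal or nearly so, except 15753 against 15392 in STAM20w. A spot with none may still hold the transcript. None of the other 9 members passed, where 151 of 13132 genes (1.15%) did, 28 higher and 123 lower, and DESeq2 called none of them either. Unadjusted p was under 0.05 for 2 of the 9, Mdm2 and Phlda3, and for 1104 of the 13132 genes.

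Mdm2 had 69.5 CPM in Cdkn1a-detected spots against 63.3 CPM in matched spots of DEN30w and 66.0 against 47.0 CPM in DEN22w. It had 48.1 against 44.7 CPM in STAM20w and 58.5 against 52.6 CPM in STAM16w. It was higher in 4 of 4 sections, with a log2 fold change of 0.14 (SE 0.05, adjusted p = 0.307), and over the alternatives the adjusted p ran from 0.333 to 1.0. Phlda3 had 0.21 (SE 0.11, adjusted p = 0.581) and Ccng1 0.11 (SE 0.06, adjusted p = 0.648), each also higher in 4 of 4 sections, and Gadd45g had -0.08 (SE 0.05, adjusted p = 0.723). Of the lists, none of 28 other p53 targets, 9 p53 regulators or 28 DNA repair genes passed. Their unadjusted p was under 0.05 for 4, 0 and 3, beside 1104 of all 13132 genes tested. Jun, an immediate early gene, was higher at 0.24 (adjusted p = 0.0113).

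Of the 151 genes, 104 had the same direction in 4 of 4 sections, 21 higher and 83 lower in Cdkn1a-detected spots. Of these the 10 with the widest fold change were S100g, Maoa, Abcc4, Nupr1, Gpnmb, Cd44 and Gstm3, which were higher, and Hbb-bt, Hba-a1 and Gm20319, which were lower. S100g, a calcium-binding protein, had 0.66 (SE 0.09, adjusted p = 8.42e-10), with 44.4 against 26.9 CPM in STAM20w and 1.51 to 3.52 CPM in both classes of the other sections. Nupr1, a stress-induced nuclear protein, had 0.27 (SE 0.05, adjusted p = 2.33e-05), with 26.1 against 22.3 CPM in DEN30w and 220 against 183 CPM in STAM20w.

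Gpnmb, a marker of lipid-laden macrophages, had 0.26 (SE 0.06, adjusted p = 0.00146), with 51.2 against 44.0 CPM in DEN30w and 94.2 against 72.8 CPM in DEN22w. Gstm3 had 0.24 (SE 0.03, adjusted p = 3.59e-16), with 840 against 702 CPM in DEN30w and 335 against 220 CPM in DEN22w. Hba-a1, a haemoglobin gene of red blood cells, had -0.39 (SE 0.05, adjusted p = 1.09e-10), with 44.2 against 72.8 CPM in DEN30w but 71.8 against 72.6 CPM in STAM20w. Hepatocyte markers were nearly equal in the 2 classes, at 54700 to 98000 CPM in Cdkn1a-detected spots and 55300 to 99600 CPM in matched spots. Other markers moved with the class. Pericentral markers summed to 2690 against 2420 CPM in DEN30w and 2510 against 2080 CPM in DEN22w, with 6 to 8 of 8 higher in the 4 sections, and at most 1 of 8 periportal markers was higher. Of 11 macrophage markers 8 to 10 were higher. Erythroid markers summed to 141 against 263 CPM in DEN30w, 54.5 against 70.4 CPM in DEN22w and 244 against 413 CPM in STAM16w. In STAM20w they were level, at 312 against 310 CPM. Of 10 proliferation markers, 9 were higher in DEN30w and 8 in DEN22w, but 4 in STAM20w and 3 in STAM16w. In STAM20w, Maoa, Abcc4, S100g and Nupr1 were among the genes that set regions apart. In the other sections Maoa had 4.4 to 8.69 CPM and Abcc4 1.14 to 6.04 CPM over both classes. The part of these regions and of macrophage, erythroid and proliferation markers in the named genes was not tested. With matches drawn from the same zone 46 genes passed, none of them a member.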

How the data were processed

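The deposited matrices give, for each spot, unnormalized whole UMI counts of every gene. Per the submitters' processing notes, Space Ranger 1.3.1, STAR and the build mm10 were used, with settings not given in the sources used here. The members and gene lists were chosen with earlier results of these data known. Spots with at least 500 UMIs and 250 genes were kept. UMIs were summed per section, zone, region or class and given as CPM. Intervals of CPM are exact Poisson and those of ratios exact binomial. Sums were tested with edgeR 4.0.16 (quasi-likelihood, TMM, filterByExpr, R 4.3.3) with Benjamini-Hochberg adjustment over all genes tested and the section as a block where both classes came from each section. The script was tested on simulated data. Zones were 3 equal classes of spots by mean z-score of pericentral minus periportal markers. Class spots were the 10% highest by marker score, paired without replacement with spots at or below the median score (the plan said below, but many spots tied at 0) within 0.1 of log10 UMIs. Regions were Leiden clusters (scanpy 1.11.5, 2000 variable genes, 20 components, resolution 0.6) made without the members. Named genes were all members, of each list at most 4 that passed, and in Cdkn1a-detected spots the 10 with the widest change and 1 direction in 4 of 4 sections. Alternatives were DESeq2 1.42.0, RLE factors, no filter, each section left out, all deposited spots, other zone and class sizes and no block. For time ratios they were all deposited spots, pericentral or periportal spots alone, and CPM outside mitochondrial and ribosomal protein genes. Chosen after seeing the data were spots low in stroma and macrophage markers, and stroma-rich or macrophage-rich spots matched within a zone. Promoter windows and gene positions are from RefSeq tables of GRCm38.p6. Tissue images were not used here.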

Additional observations from a re-analysis of the deposited data

Results flagged for a closer look

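Mdm2 moved in opposite directions between times in the 2 models. Its log2 ratio was 0.27 for DEN30w over DEN22w, with 67.3 against 55.7 CPM, and -0.19 for STAM20w over STAM16w, with 46.8 against 53.2 CPM, and both intervals left out 0. With 1 section a time the difference between the models was not tested. In pericentral spots alone the ratios were 0.06 (-0.12 to 0.23) and -0.31 (-0.48 to -0.13). In periportal spots alone they were 0.46 (0.28 to 0.63) and -0.09 (-0.29 to 0.10). The interval thus spanned 0 for DEN+CCL4 in pericentral spots and for STAM in periportal spots. With CPM taken outside mitochondrial and ribosomal protein genes, the ratios were 0.28 (0.18 to 0.38) and -0.11 (-0.22 to -0.01).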

How the results depend on the processing

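The number of genes past the threshold depended on the tool and the filter. In the order DESeq2, then no filter on low counts, it was 1517 and 1872 for the models (63 as planned), 734 and 1909 for zones (1246), and 15 and 458 for the interaction (48). DESeq2 called 74 genes in Cdkn1a-detected spots (151), 160 in macrophage-rich (677), 375 in stroma-rich (1307), 37 in bile-duct-marker-rich (229) and 13 in proliferation-marker-rich spots (21), and no filter gave 384 and 437 for the last 2. Leaving out 1 section gave 2 to 922 genes for the models, 532 to 1230 for zones, 3 to 1004 for the interaction, 51 to 131, 351 to 641, 515 to 1288, 94 to 281 and 1 to 129 for the classes in the order above. Other settings gave 103 genes for the models in pericentral spots alone, and 26 for the interaction with smaller pericentral and periportal classes. At 5% of spots the last 2 classes gave 150 and 136 genes, and at least 2 Cdkn1a UMIs gave 74. Matched within a zone, Cdkn1a-detected and macrophage-rich spots gave 46 and 388. Zones gave 264 in spots low in stroma and macrophage markers. Without the section as a block, zones and Cdkn1a-detected spots gave 0. Of the members, no filter called 1 for the models, 2 for the interaction and 1 each in macrophage-rich and bile-duct-marker-rich spots, and 5% of spots called 1 in each of these classes. Zones had 0 members without the block and 0 in spots low in other markers, and stroma-rich spots had 1 with DESeq2. Leaving out 1 section gave 0 to 1 members for the models, 1 to 4 for zones, 0 to 2 for the interaction, 0 to 2 in macrophage-rich, 1 to 2 in stroma-rich and 0 to 1 in bile-duct-marker-rich spots. The cause was not tested. Bax for DEN30w over DEN22w was -0.06 in pericentral spots alone, against 0.20 in all spots. In spots of 1 zone alone, 11 other time ratios left the interval of the ratio over all spots, among them Phlda3 in DEN+CCL4 at 0.05 in pericentral spots (0.39 in all) and Eda2r at 1.32 in periportal spots (0.67 in all). Of the members' fitted values under the alternatives, 608 kept direction and side of the threshold, 18 newly passed, 7 no longer passed and 63 changed sign, none of them past the threshold. The genes with such changes of sign follow, on the log2 scale. For the models they were, with 1 section left out, Cdkn1a -0.82 to 0.75, Eda2r -0.27 to 0.37, Gadd45b -1.2 to 0.38, Gadd45g -1.95 to 0.72 and Mdm2 -0.02 to 0.32, and otherwise Eda2r -0.02 and Gadd45g 0.31 (periportal spots alone). For zones they were, with 1 section left out, Aen -0.03 to 0.08 and Gadd45g -0.37 to 0.28, and otherwise Gadd45g 0.07 (spots low in stroma and macrophage markers). For the interaction they were, with 1 section left out, Aen -0.15 to 0.15, Eda2r -0.20 to 0.94 and Gadd45a -0.24 to 0.03. With 1 section left out they were also Mdm2 -0.16 to 0.32 and Phlda3 -0.14 to 0.48. Otherwise they were Aen 0.06 and Phlda3 -0.09 (smaller pericentral and periportal classes). In Cdkn1a-detected spots they were, with 1 section left out, Bax 0.00 to 0.08, Gadd45a -0.15 to 0.14 and Gadd45g -0.14 to 0.03, and otherwise Aen -0.01, Gadd45a -0.13 and Gadd45b -0.01 (at least 2 Cdkn1a UMIs), Eda2r -0.05 and Gadd45g 0.01 (DESeq2), Eda2r -0.06 (matches within a zone) and Eda2r -0.03 (no section block). In macrophage-rich spots they were, with 1 section left out, Aen -0.01 to 0.07, Gadd45a -0.27 to 0.05, Gadd45g -0.25 to 0.05 and Mdm2 -0.05 to 0.11, and otherwise Aen -0.11 (the highest 5% of spots), Aen -0.07, Gadd45g 0.00 and Phlda3 -0.08 (matches within a zone) and Gadd45g 0.01 (DESeq2). In stroma-rich spots they were, with 1 section left out, Bax -0.05 to 0.08 and Mdm2 -0.11 to 0.00, and otherwise Bax 0.00 (DESeq2), Bax 0.00 and Eda2r -0.01 (no filter), Bax -0.07, Eda2r -0.04 and Gadd45a 0.12 (matches within a zone), Eda2r -0.02 (RLE factors) and Gadd45a 0.12 (the highest 5% of spots). In bile-duct-marker-rich spots they were, with 1 section left out, Aen -0.02 to 0.05, Bax -0.10 to 0.01, Cdkn1a -0.09 to 0.06 and Gadd45g -0.15 to 0.06, and otherwise Ccng1 0.08 and Cdkn1a 0.06 (the highest 5% of spots). In proliferation-marker-rich spots they were, with 1 section left out, Cdkn1a -0.07 to 0.52 and Gadd45g -0.31 to 0.41. Sections of the 2 models could not be paired with each other, because replicate numbers were given in accession order and pair no sections. Zones and classes were paired within each section by the block. Eda2r, with 41 to 101 UMIs a section, was limited by depth.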
